A study of Mus musculus with 4 samples.

Results

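Integrins are cell-surface receptors that join 1 alpha and 1 beta subunit, bind matrix proteins or counter-receptors on other cells, and pass signals across the membrane in both directions. The described genes are 10 integrin subunits of mouse hematopoietic stem cells (HSCs), taken by their symbols: Itga2b, which encodes the CD41 antigen, Itgb3, Itga2, Itga4, Itga5, Itga6, Itga9, Itgav, Itgb1 and Itgb7. They are 10 of the 27 integrin subunit genes, and 10 of the 37140 genes, that are listed in all 4 RNA-seq libraries analysed here. Their identifiers were matched through the GENCODE annotation of GRCm38, and each of the 10 had counts in every library.

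The libraries came from C57Bl6 mice that were Gfi1b WT or Gfi1b KO. Gfi1b is a transcriptional repressor of the blood lineages, with high expression in megakaryocytes (MKs), the precursors of platelets. By the methods, WT and KO mice were both treated with tamoxifen 2 weeks ahead of the sort. In the KO mice, which carried Rosa-Cre(ER) and Gfi1b fl/fl alleles, it activated the Cre recombinase. Cre at the Rosa locus is not restricted to HSCs, so the allele could be deleted in other cells of the same mice. The methods give the controls as Rosa-Cre mice heterozygous for the floxed allele, while the deposited design text describes floxed mice without Cre. In the former case, tamoxifen could delete the floxed allele of the controls as well. Bone marrow of 10 WT mice and of 5 KO mice was pooled before the sort. The first population was HSCs (Lin- cKit+ Sca1+ CD48- CD150+), and the second was CD41low/CD9low HSCs. Neither CD41 nor CD9 appears among the sort markers of the former in the labels and the RNA-seq methods, whereas the study's results name it CD41+/CD9+. With 1 library per genotype and population, KO/WT differences of a population stand without a replicate.

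Gene counts summed to 50781007 (WT) and 41690708 (KO) for HSCs, and to 12732079 (WT) and 19123185 (KO) for CD41low/CD9low HSCs. Every one of 14 HSC markers had counts in each library, among them Kit (989 to 1262 CPM, which are counts relative to the summed gene counts of a library). Of 22 MK markers, Gp1bb and Gp6 were at 0 in WT CD41low/CD9low HSCs. Whole-gene counts of Gfi1b were 9256 in WT and 49910 in KO HSCs, and 611 and 9741 in the CD41low/CD9low pair, so they do not show the deletion, and a count per gene does not resolve the deleted exons. The study reports that expression of the floxed exons was absent after deletion in both MKs and HSCs. The sample titles name Gfi1 whereas the genotype labels name Gfi1b.

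The 10 subunits fall into known heterodimers. αIIbβ3, the product of Itga2b and Itgb3, is the fibrinogen receptor by which platelets aggregate, and its presence on stem cells is the basis of CD41 as a sort marker. Itgav also pairs with Itgb3 in a receptor for vitronectin and other proteins with an RGD motif. Itgb1 is the common partner of Itga2 (collagens), Itga4 (VCAM-1 and fibronectin), Itga5 (fibronectin), Itga6 (laminins) and Itga9, and Itga4 also pairs with Itgb7. In bone marrow, Itga4 with Itgb1 is known for holding HSCs in their niche. Beta subunit tails bind talin and kindlin, which switch integrins to high affinity, and Rap1 GTPases act upstream of talin.

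Sequences are shown for the stretch that identifies the alpha subunits, which the choice by symbol did not use. Each of the 7 alpha subunits here carries GFFKR, or GFFRR in Itga9, just inside the membrane, where it clasps the beta subunit. The motif was recorded for the alpha subunits only, so nothing is said about its presence in Itgb3, Itgb1 or Itgb7. The coding bases of 30-base stretches of the longest protein-coding transcripts (GENCODE M21, GRCm38) are printed 5′ to 3′, with the codons of this motif in capitals.
Itga2b: tggaaggctGGCTTCTTCAAGCGGaatcga
Itga2: tggaagctcGGCTTCTTCAAAAGAcaatat
Itga4: tggaaggctGGATTCTTTAAAAGAcagtac
Itga5: tacaagctcGGCTTCTTCAAACGTtccctc
Itga6: tggaagtgtGGCTTCTTCAAGAGAaataag
Itga9: tggaagatgGGCTTCTTCCGCAGAaggtac
Itgav: tacaggatgGGCTTTTTCAAACGTgtccga
In these 15 capital bases, Itga5 and Itga6 differed from Itga2b at 2 positions, Itga2 and Itgav at 3, and Itga4 and Itga9 at 5. The Itga2b stretch lies on the reverse strand of chromosome 11, split over exons 29 and 30 of 30 (chr11:102453494-102455569 with the intron). Each of the other 6 stretches was also split by an intron, between exons 24 and 25 in Itga6 and between the last pair of exons in the rest.

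In KO HSCs, Itgb3 and Itga2 were above the 1.5-fold cutoff of the study, and Itgb3, Itga2 and Itga2b were above it in KO CD41low/CD9low HSCs. The other 7 genes lay between 0.6 and 1.5 in both populations. Thus 2 of 10 members were up in HSCs, beside 14.1% of all 15910 genes with at least 10 counts in 1 library of the pair. In CD41low/CD9low HSCs, 3 of 10 were up, beside 13.5% of 14844 genes. None was down (below 0.6) in either population, where 10.3% and 12.0% of all genes were. Itgb3 and Itga2, which are 2 of the 10 members, were up in both populations, as were 3.32% of the 14144 genes that could be compared in both. All 10 members passed the filter on counts. The median ratio of the members was 1.20 (HSCs) and 1.004 (CD41low/CD9low HSCs), and the median log2 ratio over all genes was 6.65e-05 and 0.0079. With 10 genes, nothing is read from these shares about integrins as a family.

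**Figure D1:**
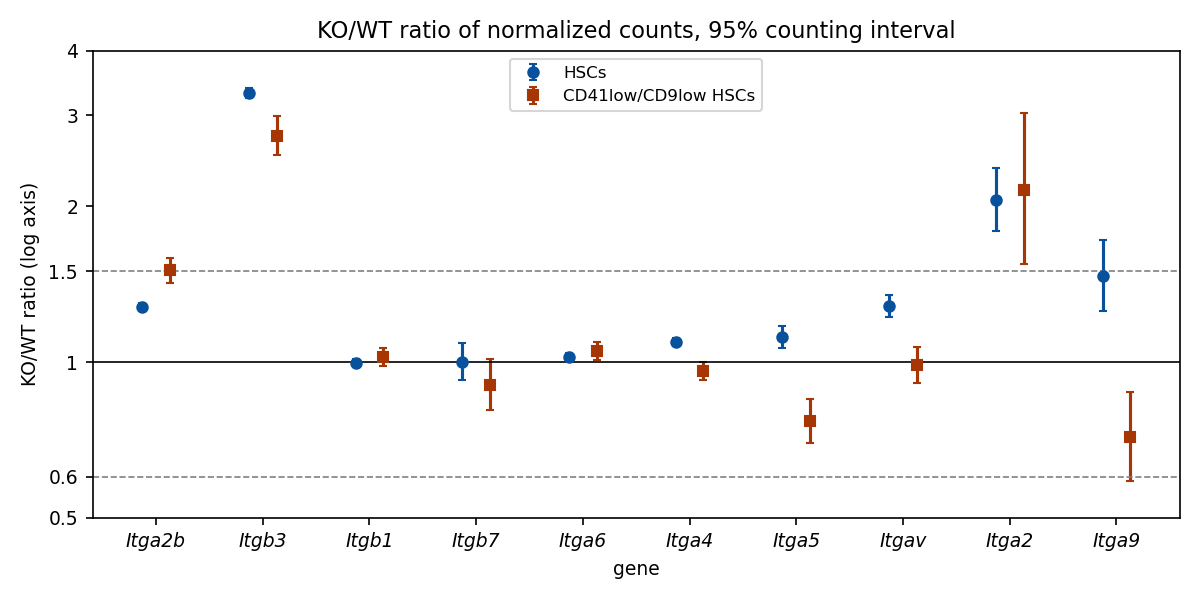
KO/WT ratio of normalized counts (log axis) for the 10 integrin subunit genes in HSCs (blue circles) and CD41low/CD9low HSCs (brown squares). Bars are 95% intervals for counting error only, from 1 library per genotype, and dashed lines mark the cutoffs of 1.5 and 0.6. Itgb3 and Itga2 lie above 1.5 in both populations, and Itga5 and Itga9 lie on different sides of 1 in the populations.

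Itgb3, the beta subunit of the fibrinogen receptor (chr11:104608000-104670476, forward strand), rose most among the members. Its level was 202 CPM in WT and 663 CPM in KO HSCs, and 51.4 CPM in WT and 141 CPM in KO CD41low/CD9low HSCs. In both populations the KO library was above its WT library, and KO CD41low/CD9low HSCs remained below WT HSCs. The KO/WT ratio of size-factor normalized counts was 3.32 in HSCs (95% interval 3.25 to 3.40) and 2.74 in CD41low/CD9low HSCs (2.51 to 2.99). Such intervals are exact binomial intervals for counting error and hold no variation between mice or sorts. Genes of high count were those that reached 1000 counts in WT or in KO, not necessarily in both. Their 95th percentile of the log2 ratio was 0.65 (HSCs) and 0.43 (CD41low/CD9low HSCs), against 1.73 and 1.45 for Itgb3. In the CD41low/CD9low pair Itgb3 had 655 (WT) and 2689 (KO) counts, so only its KO count placed it in that class. The percentile of that pair is therefore no independent support for the rise.

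Itga2b, its alpha partner (chr11:102453297-102470122, reverse strand), was also higher in both KO libraries, by less. It had 547 CPM in WT and 691 CPM in KO HSCs, and 136 CPM in WT and 205 CPM in KO CD41low/CD9low HSCs. The ratio was 1.28 (1.26 to 1.30) in HSCs, within the central 90% of genes of high count, and 1.504 (1.42 to 1.59) in CD41low/CD9low HSCs, just past the cutoff. The log2 ratio of 0.59 in that pair lies above the 95th percentile of genes of high count (0.43). CD41 was a criterion of the CD41low/CD9low sort in both genotypes, so the RNA of its gene in that pair describes cells already chosen for little CD41 on their surface. If the HSC pair was sorted as CD41+, the same limit holds there. The correction for exon length given below brings the latter ratio to 1.48, below the cutoff.

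The subunits of the fibrinogen receptor therefore differed between genotypes in their ratio within a library, which scaling between libraries does not touch. CD41, the product of Itga2b, was a criterion of the CD41low/CD9low sort, and of the HSC sort if that was CD41+. The product of Itgb3 was not a sort marker. The part of this selection in the ratio was not tested, and each value rests on 1 library per genotype. Per exon length, Itga2b exceeded Itgb3 by 2.92-fold in WT HSCs and 2.87-fold in WT CD41low/CD9low HSCs. In the KO libraries the excess was 1.13-fold and 1.58-fold. The KO value of the Itga2b to Itgb3 ratio was 0.386 times the WT value (0.375 to 0.397) among HSCs and 0.550 times (0.496 to 0.609) among CD41low/CD9low HSCs. With the length of the longest transcript in place of all exons, the excess was 4.54 and 1.75-fold in WT and KO HSCs and 4.46 and 2.45-fold in the other pair. Itgav, the other alpha partner of Itgb3, stood at 0.181 (WT) and 0.0698 (KO) times its TPM in HSCs, and at 0.842 (WT) and 0.303 (KO) times in CD41low/CD9low HSCs.

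Itga2, the collagen-binding alpha subunit (chr13:114833081-114932100, reverse strand), was a gene of low count that was higher in both KO libraries. Its counts were 320 in WT and 534 in KO HSCs, and 49 in WT and 158 in KO CD41low/CD9low HSCs. The ratios were 2.06 (1.79 to 2.37) and 2.15 (1.55 to 3.03). The lower bounds lie above 1.5 in both pairs, but no replicate supports either value.

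The beta subunit Itgb1, shared by most receptors of the list, differed by less than counting error between genotypes. It had 491 CPM in WT and 483 CPM in KO HSCs, and 322 and 329 CPM in the CD41low/CD9low pair. The ratios were 0.997 (0.979 to 1.02) and 1.02 (0.983 to 1.06). Itgb7, which pairs with Itga4 in a homing receptor for the gut, had ratios of 1.002 (0.922 to 1.09) and 0.904 (0.807 to 1.012), from 25.1, 24.8, 42.2 and 38.1 CPM in the order WT HSCs, KO HSCs, WT and KO CD41low/CD9low HSCs. Both intervals of each of these beta subunits include 1.

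Itga6, the laminin-binding subunit that is also known as CD49f, and Itga4, the VCAM-1-binding subunit, kept high levels in every library. Itga6 had 476 (WT) and 481 CPM (KO) in the HSC pair, 304 (WT) and 319 CPM (KO) in the CD41low/CD9low pair, with ratios of 1.02 (1.005 to 1.04) and 1.05 (1.0096 to 1.09). Itga4 had 413 and 446 CPM in HSCs and 306 and 293 CPM in CD41low/CD9low HSCs, with ratios of 1.09 (1.07 to 1.12) and 0.960 (0.922 to 1.001). Exons of Itga4 overlap those of the antisense gene Cerkl over 1124 bases, and Cerkl had 139 to 506 counts per library. The library kit marks strand, but the strand setting of the counting is not given in the sources used here.

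Itga5, the fibronectin receptor subunit, and Itga9 were higher in the KO library of HSCs and lower in that of CD41low/CD9low HSCs. Itga5 had 63.6 (WT) and 70.2 CPM (KO) in the HSC pair, against 58.2 (WT) and 44.7 CPM (KO) in the CD41low/CD9low pair. Its ratios were 1.12 (1.06 to 1.18) and 0.769 (0.696 to 0.850). Itga9 counted 299 and 356 in HSCs and 199 and 214 in CD41low/CD9low HSCs. Its ratios were 1.47 (1.26 to 1.72) and 0.717 (0.588 to 0.874). Itgav, the vitronectin receptor subunit, had 66.6 and 84.4 CPM in HSCs (KO/WT 1.28, 1.22 to 1.35), and 78.9 and 77.7 CPM in CD41low/CD9low HSCs (KO/WT 0.986, 0.910 to 1.07).

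Scaling by TMM or by the total count shifted these log2 ratios by at most 0.02. In HSCs the reads outside annotated features were 80.0 per 100 counts in WT and 105.3 in KO, and the KO/WT ratios there moved with exon length. After subtraction of the running median over 500 genes of similar exon length, the HSC ratio was 3.20 for Itgb3, 1.24 for Itga2b and 1.93 for Itga2. The same correction brought Itgav to 1.12, Itga9 to 1.34, and Itga4 and Itga6 to 0.921 and 0.922, so that the latter genes changed side.

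**Figure D2:**
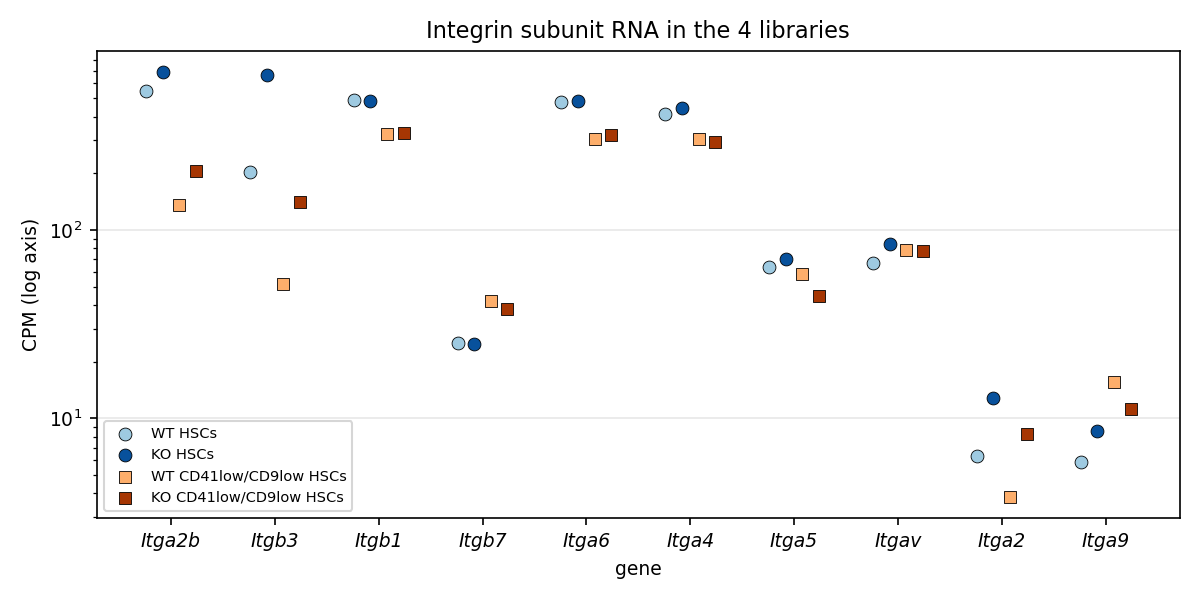
Level of the 10 integrin subunit genes in CPM (log axis) in each of the 4 libraries, with 1 point per library and no error bar because each group is 1 library. Itga2b and Itgb3 lie lower in both CD41low/CD9low libraries (squares) than in both HSC libraries (circles), and Itgb3 lies higher in each KO library (dark) than in its WT library (light).

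A genotype effect common to HSCs and CD41low/CD9low HSCs was tested by fitting all 4 libraries together in edgeR (quasi-likelihood test), with a term for population. Here the populations stand in for replicates of the genotype, which leaves 1 residual degree of freedom. The methods describe both populations as sorted from the pooled marrow of a genotype. The libraries of a genotype would then share mice and not be independent replicates, so the p-values do not extend to other mice. Itgb3 was the member that passed, with a log2 KO minus WT of 1.59 ± 0.149 (SE, 4 libraries; adjusted p = 1.45e-05). Thus 1 of 10 members was called, beside 0.843% of the 14940 genes tested (0.535% higher and 0.308% lower). Itga2b did not pass at 0.47 ± 0.142 (adjusted p = 0.18) and Itga2 did not at 1.07 ± 0.374 (adjusted p = 0.286), although each was higher in KO in 2 of 2 pairs. The adjusted p of Itga2b ranged from 0.0455 without a filter on counts to 0.9999 without the population term. The other 7 members had log2 values from -0.10 (Itga5) to 0.17 (Itgav), with adjusted p from 0.847 to 0.993. The median of the members was 0.05 and that of all tested genes 0.01. No spread between mice enters this fit, since the mice of a genotype were pooled. Each SE is the absolute log2 value divided by the square root of its F statistic, with a dispersion drawn in part from all tested genes. It is thus no spread measured among the 4 libraries.

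**Figure D3:**
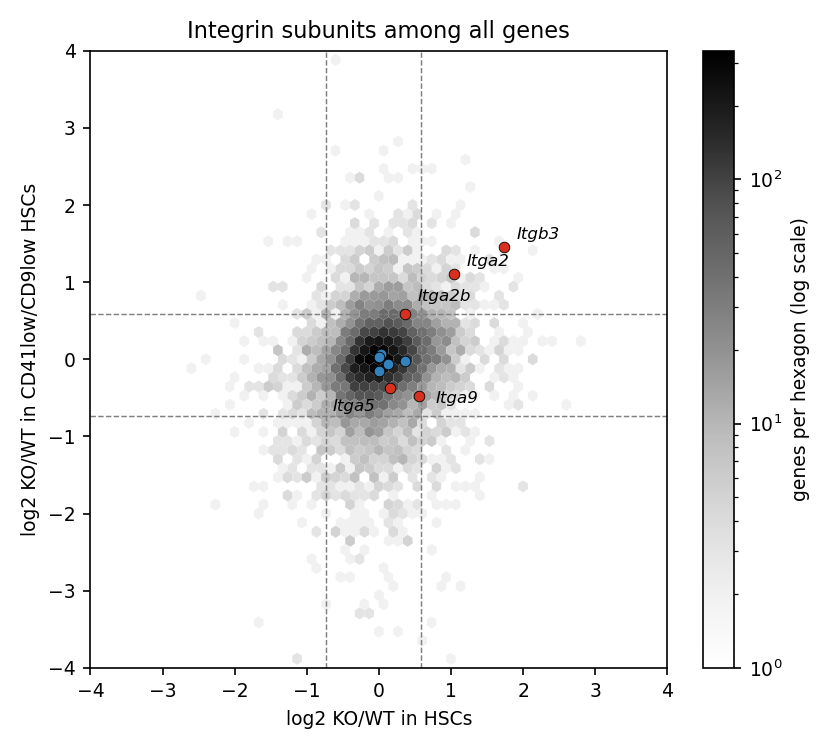
log2 KO/WT in HSCs (x axis) against CD41low/CD9low HSCs (y axis) for genes with at least 10 counts in each pair and counts in all 4 libraries (grey hexagons, darker with more genes), with the 10 integrin subunits as points. Itgb3 lies at 1.73 and 1.45, Itga2 at 1.04 and 1.10 and Itga2b at 0.36 and 0.59, while Itga5 and Itga9 (red, like these) lie right of and below 0. The other 5 subunits are blue, dashed lines mark the cutoffs, and genes beyond 4 on an axis are not drawn.

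Between populations, most of the abundant subunits were lower in CD41low/CD9low HSCs than in HSCs of the same genotype. The gate itself selects for little CD41, so that the level of Itga2b across populations is no finding. Its normalized level in CD41low/CD9low HSCs was 0.239 times that in HSCs in the WT pair (0.227 to 0.250) and 0.284 times (0.275 to 0.294) in the KO pair. Itgb3, whose product reaches the surface with that of Itga2b, was at 0.243 times (0.224 to 0.263) and 0.203 times (0.195 to 0.211). In WT, 3 of 10 members (these and Itga2, at 0.584) lay below 0.6, beside 19.7% of all genes, and 2 of 10 (Itga9 and Itgb7) lay above 1.5, beside 19.2%. In KO, 2 of 10 lay below 0.6, beside 20.4%, and none above 1.5, beside 19.2%. In a bulk sample, fewer cells that express a gene and less RNA of it per cell cannot be told apart.

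In the population term of the same fit, 6 of 10 members passed, beside 20.8% of all genes tested. Of these, 5 were lower in CD41low/CD9low HSCs (12.6% of all genes were) and 1 was higher (8.24%). Both counts of passing and of lower members include Itga2b, on whose product the gate selects, and Itgb3, whose product reaches the surface with it. The calls of these genes follow the sort, so the counts are not read as a result about the members. Itgb3 (log2 -2.17 ± 0.151, adjusted p = 3.61e-08), Itga2b (-1.94 ± 0.147, adjusted p = 1.03e-07), Itga6 (-0.68 ± 0.139, adjusted p = 0.0022), Itgb1 (-0.64 ± 0.138, adjusted p = 0.00334) and Itga4 (-0.58 ± 0.140, adjusted p = 0.00706) were lower. Itgb7 was higher by 0.62 ± 0.201 (adjusted p = 0.0354), but not with DESeq2 (adjusted p = 0.0984) or without the genotype term (adjusted p = 0.0856). Itga2, Itga5, Itga9 and Itgav did not pass, at -0.73, -0.45, 0.84 and 0.00. Itga9 was 2.54 times as high (2.11 to 3.05) in the CD41low/CD9low as in the HSC library of WT and 1.25 times (1.05 to 1.49) in that of KO. The libraries of the populations differ in depth and were counted on different gene lists, so preparation and population cannot be told apart here.

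MK markers moved in the same direction across populations. Of the 22 genes of the list without integrins, 16 were lower in the population term, beside 12.6% of all genes, and none was higher. The median log2 was -1.62, against -0.04 for all tested genes. Cd9 is among the 16, and CD9 is itself a criterion of the CD41low/CD9low gate, so its lower level is no finding. The study applied this gate to keep out possible MK precursors. Lower MK markers are thus what the sort aims at, and the counts of this list are not read as a result. Pf4, a chemokine of platelet granules, was lower, with 144 (WT) and 126 CPM (KO) in HSCs against 14.4 (WT) and 13.2 CPM (KO) in CD41low/CD9low HSCs. The summed level of the list was 3296 (WT) and 4666 CPM (KO) for HSCs, against 1805 (WT) and 1995 CPM (KO) for the CD41low/CD9low pair. Their part in the population difference of Itga2b and Itgb3 was not tested.

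Across genotypes the MK markers moved in both directions. Plek, a substrate of protein kinase C in platelets, and Treml1, a receptor of platelet granules, were higher in the genotype term (log2 1.22, adjusted p = 0.00093, and 0.91, adjusted p = 0.0369). Selp, the platelet adhesion molecule P-selectin, and Thbs1, which encodes thrombospondin, were lower (-1.35, adjusted p = 0.00297, and -1.29, adjusted p = 0.0206). Pf4 had KO/WT ratios of 0.889 (HSCs, 0.858 to 0.921) and 0.922 (CD41low/CD9low HSCs, 0.759 to 1.12). Gp1bb, a chain of the von Willebrand factor receptor, was up in HSCs (1.73) and, from 0 counts in WT, at least 13.6-fold higher in KO CD41low/CD9low HSCs, against a floor of 3 counts per library. Tubb1, a platelet tubulin, was below 0.6 in both (0.208 and 0.272). Without Plek, which alone had 487 (WT) and 1473 CPM (KO) in HSCs, the list summed to 2810 and 3193 CPM in HSCs and 1694 and 1799 CPM in CD41low/CD9low HSCs. Whether a changed share of MK-like cells took part in the rise of Itgb3 was not tested.

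Among the list's most abundant genes, Cd9, Nfe2, Zfpm1, Fli1 and Mmrn1 did not pass in the genotype term, with log2 values from -0.12 (Mmrn1) to 0.49 (Zfpm1). Of the 14 HSC markers, Procr, the protein C receptor, was higher (0.87, adjusted p = 0.0117, with ratios of 2.20 and 1.52). Kit, Hlf, Meis1, Esam and Cd34 did not pass, with log2 values between -0.50 (Hlf) and 0.18 (Kit). The median log2 was 0.23 over the 22 MK markers and 0.17 over the 14 HSC markers.

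Levels between genes were compared per exon length, as TPM (counts per exon base, scaled to a common total in each library). In WT HSCs the order was Itgb1 (401 TPM), Itga2b (334), Itga6 (176), Itgb3 (114), Itga4 (98.4), Itga5 (42.9), Itgb7 (30.1), Itgav (20.6), Itga2 (2.94) and Itga9 (2.55). In KO HSCs, Itga2b (434 TPM) lay above Itgb1 (406), and Itgb3 (385) above Itga6 (183). In WT CD41low/CD9low HSCs, Itgb1 (204 TPM) led, followed by Itga6 (87.1), Itga2b (64.8), Itga4 (56.6), Itgb7 (39.4), Itga5 (30.5), Itgb3 (22.6), Itgav (19.0), Itga9 (5.26) and Itga2 (1.40). In KO CD41low/CD9low HSCs, Itgb1 (214 TPM) was again first, Itga2b (99.9) and Itga6 (93.9) lay close to each other, and Itgb3 (63.4) passed Itga4 (55.8). With the length of the longest transcript, Itga2b (413 TPM) lay above Itgb1 (334) in WT HSCs as well, and Itga6 (287 TPM) came closer to Itgb1. Without replicates, no order of neighbouring genes can be set against a spread between samples.

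The summed TPM of the 10 genes was 1221 in WT and 1633 in KO HSCs, and 531 in WT and 614 in KO CD41low/CD9low HSCs. Itga2b and Itgb3 made up 36.7% and 50.1% of it in the HSC pair, and 16.4% and 26.6% in the CD41low/CD9low pair. The remaining 8 genes summed to 774 (WT) and 814 TPM (KO) in HSCs, and 444 (WT) and 451 TPM (KO) in CD41low/CD9low HSCs. The alpha subunits that pair with Itgb1 alone or among others (Itga2, Itga4, Itga5, Itga6, Itga9 and Itgav) summed to 0.857 and 0.931 times the TPM of Itgb1 in the HSC pair (WT, KO), and to 0.979 and 0.933 times it in the other pair. Most of the KO/WT difference in the summed level thus lay in Itga2b and Itgb3.

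**Figure D4:**
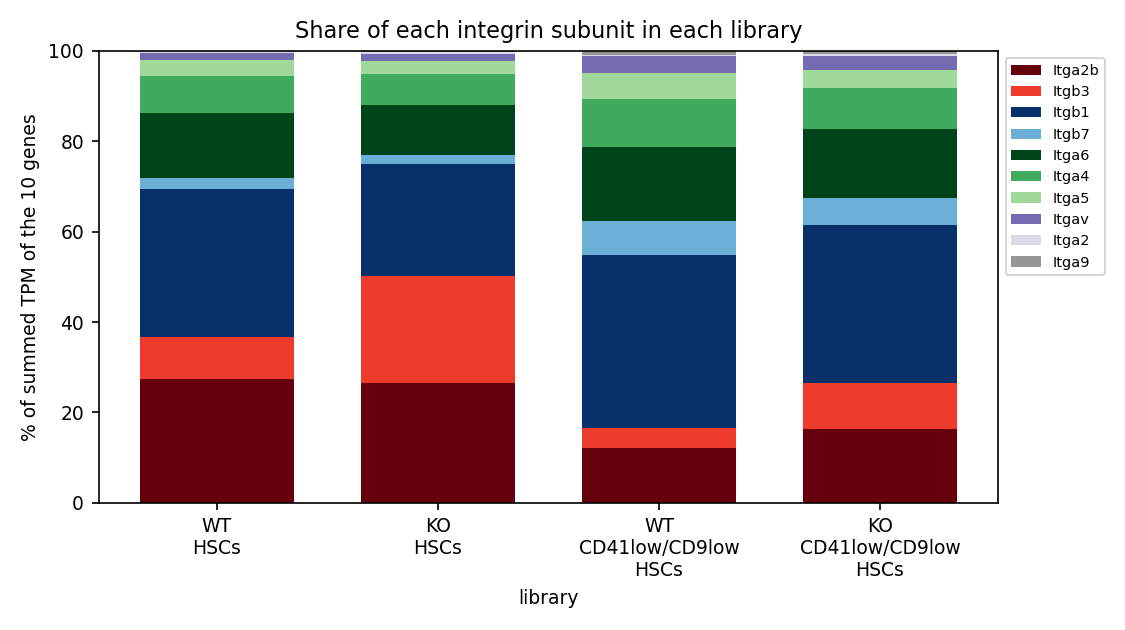
Share of each integrin subunit in the summed TPM of the 10 genes (%), 1 bar per library, stacked to 100%. Itga2b and Itgb3 at the bottom take 36.7% (WT) and 50.1% (KO) in the HSC bars, and 16.4% (WT) and 26.6% (KO) in the CD41low/CD9low bars.

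The other 17 integrin subunit genes were mostly of low count, and 14 were tested. Itgb2, the beta subunit of the leukocyte integrins, was higher in the genotype term (log2 0.80 ± 0.156, adjusted p = 0.0185), and no gene was lower. It had 64.6 (WT) and 115 CPM (KO) in the HSC pair and 43.6 (WT) and 73.8 CPM (KO) in the CD41low/CD9low pair, with ratios of 1.80 (1.72 to 1.88) and 1.69 (1.54 to 1.87). Of its alpha partners, Itgam had ratios of 0.5997 (0.529 to 0.679) and 0.599 (0.520 to 0.688), both just below 0.6, and Itgal had 1.72 (1.57 to 1.88) and 0.752 (0.591 to 0.957). Itgb4, the partner of Itga6 in hemidesmosomes, was up in both populations at 2.54 (2.01 to 3.23) and 3.20 (2.16 to 4.88), from 31 to 220 counts. Markers of neutrophils and their progenitors, which carry these leukocyte integrins, summed to 451 (WT) and 539 CPM (KO) for HSCs and to 1124 (WT) and 281 CPM (KO) for the CD41low/CD9low pair, with none of the 9 at 0, and their part in these values was not tested. Of Itga3, Itgb2l and Itgb5, each with fewer than 250 counts per library, none passed. The 1 called gene of 14 stands beside 0.843% of all genes. Past the cutoffs, this list had 7 up and 3 down of 14 in HSCs (14.1% and 10.3% of all genes), and 6 up and 4 down of 12 in CD41low/CD9low HSCs (13.5% and 12.0%), and its median log2 in the genotype term was 0.21.

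Of 32 genes for integrin activation and adaptors, 29 were tested and none passed in the genotype term, against 0.843% of all genes. Tln1, which encodes talin, had ratios of 1.02 (1.006 to 1.03) and 0.976 (0.959 to 0.994). Fermt3, the kindlin of blood cells, had 0.866 (0.853 to 0.880) and 1.10 (1.07 to 1.13). Flna, Lims1 and Parvg, which link integrins to actin, had log2 values from -0.10 to 0.17 in the genotype term. Rap1b, a GTPase that activates platelet integrins, was up in HSCs at 2.05 (2.02 to 2.08) and not in CD41low/CD9low HSCs at 1.06 (0.986 to 1.13), a difference that was not tested. Fermt2 was up in both but with 0 to 58 counts. In HSCs 11 of 30 genes of the list were up and none down, beside 14.1% and 10.3% of all genes. In CD41low/CD9low HSCs 1 of 29 was up and 3 were down, beside 13.5% and 12.0%. The median ratio was 1.20 and 0.997.

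Of 30 integrin ligand genes, 20 were tested. Lamb2, a laminin chain, was higher (log2 1.58 ± 0.256, adjusted p = 0.00397, with ratios of 4.64 and 1.94). The collagen IV chains Col4a1 (-1.29 ± 0.249, adjusted p = 0.0178) and Col4a2 (-1.41 ± 0.295, adjusted p = 0.0307) were lower, as was Thbs1, given above. Their ratios were 0.242 and 0.192 (HSCs) and 0.691 and 0.727 (CD41low/CD9low HSCs). Spp1, which encodes osteopontin, a ligand of Itga4, Itga9 and Itgav, was below 0.6 in both pairs, with 153 (WT) and 12 (KO) counts for HSCs and 48 and 1 for the other pair, and did not pass (adjusted p = 0.146). Vwf, Icam1, Icam2, Lamc1, Jam3 and Emilin1 did not pass, with log2 values from -0.51 to 0.22. The fibrinogen genes Fga, Fgb and Fgg were at 0 in all 4 libraries. The median log2 of the list was -0.06. The 4 called of 20 genes here, the 4 of 22 MK markers and the 1 of 14 HSC markers stand beside 0.843% of all genes.

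**Figure D5:**
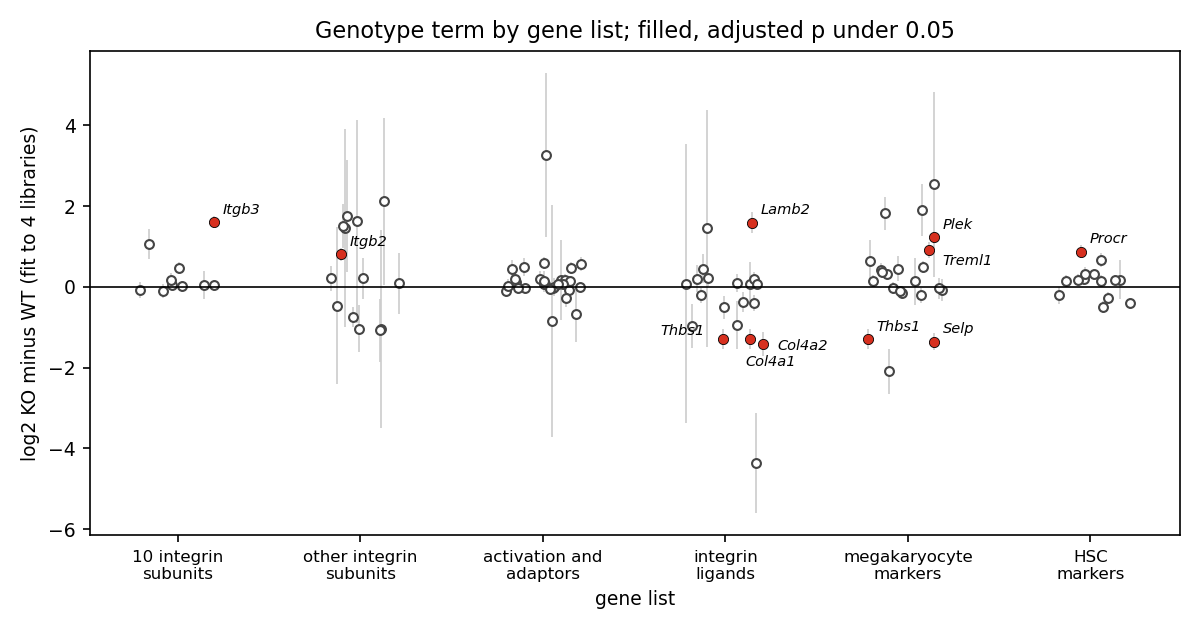
log2 KO minus WT from the edgeR fit of 4 libraries with terms for genotype and population, for the tested genes of 6 lists. Points are genes spread sideways for legibility, and bars are ± 1 SE derived from the F statistic. Filled red points passed at an adjusted p under 0.05. Itgb3 is the filled point among the 10 subunits at 1.59, and none is filled among the activation and adaptor genes.

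Over the 4 libraries, the genes whose pattern lay nearest to that of Itgb3 were F2r, which encodes a thrombin receptor, then Cavin2, Plek, Pde5a and Psd3. Nearness was the Euclidean distance of log2 normalized values after centring each gene, among 11063 genes with at least 50 counts in every library. F2r lay at a distance of 0.254, with 13318 (WT) and 31134 (KO) counts for HSCs, 945 and 3458 for the CD41low/CD9low pair, and KO/WT ratios of 2.89 and 2.44. For Itga2b the nearest were Myom1, 1190002N15Rik, Kdr, Dusp3 and Zeb2, at 0.205 to 0.349. Itgb3 and Itga2b lay 1.17 apart, so that Itga2b was in place 29 from Itgb3, and Itgb3 in place 543 from Itga2b. With 4 libraries, many genes lie near each other in this measure.

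Promoter entries of RefSeq (GRCm38.p6, 250 bases before to 50 after the start) were found for 8 of the 10 members. The letters AATC, the core of the sequence that Gfi1b is known to bind, were searched on both strands. They occur in 73.1% of 32851 promoters of this length, and in 6 of these 8, so their presence sets no member apart. Itga2b has 1 match, 105 bases before the start of its RefSeq entry, on the reverse strand relative to the gene. That start lies inside the GENCODE bounds of the gene given above. The stretch of this CD41 gene is shown with the match in capitals (chr11:102469972-102470001, reverse strand).
Itga2b: gaaagagaaagggGATTgccgggcttgtgg
Itga2 and Itgb1 have no match. Itga9 has 4 matches, and 22.6% of all promoters of this length have 3 or more. Its entry (chr9:118711442-118711741, forward strand) lies inside the GENCODE gene, which starts at 118606690. The longer letters AAATCAC, found in 3.2% of promoters, were in none of the 8. No binding data were analysed here, and a match of 4 letters is a description of the sequence only.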

How the data were processed

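RNA of sorted mouse HSCs was sequenced after TruSeq Stranded mRNA preparation, with 1 library per genotype and population. The authors aligned reads to mm10 with TopHat 2.0.10, processed them with Samtools and counted them on Ensembl genes with HTSeq. They deposited raw whole-number counts, 1 per gene. The HTSeq version, strand setting and annotation release are not given in the sources used here. The HSC pair lists 38293 genes and the CD41low/CD9low pair 41214, of which 37140 are shared and were used across populations. Lines for reads outside features, ambiguous or not uniquely aligned were left out. How reads shared by near-identical genes were treated is not stated.

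From the counts, KO/WT ratios were computed with median-of-ratios size factors of each pair (KO/WT 0.810 and 1.5) and the cutoffs of the study, for genes with at least 10 counts in 1 library. Exact (Clopper-Pearson) 95% intervals of these ratios cover counting error only. Intervals for the Itga2b to Itgb3 ratio and for differences of log2 KO/WT between populations are normal approximations on the log scale. They also cover counting error only. The floor used here, 3 counts, equals 0.059 and 0.072 CPM in WT and KO HSCs and 0.236 and 0.157 CPM in the other pair. CD41low/CD9low over HSC ratios used size factors over all 4 libraries. edgeR 4.0.16 in R 4.3.3 gave the quasi-likelihood test (TMM, at least 10 counts in at least 2 libraries, Benjamini-Hochberg over all 14940 genes, prior degrees of freedom 15.7, estimated BCV 0.255). On simulated counts, 68.6% of 194 tested genes changed 3-fold were recovered, with 5 false calls among 14810 genes. The simulation drew independent libraries with a common dispersion and the same genotype effect in both populations. Its false calls therefore do not give the error rate of the real libraries. TPM used the union of annotated exons of GENCODE M21 (Python 3.11.15, numpy 2.4.6, pandas 2.3.3, scipy 1.17.1).

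The members and gene lists were chosen with earlier results of these data known. All 10 members were named, and from each other list the genes called in the genotype term, those past a cutoff in the same direction in both populations and up to 6 more of the highest mean level per length. The values of 1 listed gene are not reported here. Alternatives were other scalings, filters, a pseudocount, DESeq2 1.42.0, fits without a covariate and transcript length. An exon length correction was chosen after seeing the data.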

Additional observations from a re-analysis of the deposited data

Results flagged for a closer look

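For 6 of the 10 members, the KO/WT difference had opposite signs in the populations, with 1 library per genotype in each. The difference between populations was not tested, since a model with interaction has no residual degrees of freedom. Opposite signs were also found in 43.3% of the 14144 genes with a ratio in both. Subtracting the log2 KO/WT of HSCs from that of CD41low/CD9low HSCs gave -1.04 for Itga9 (95% counting interval -1.39 to -0.68) and -0.54 for Itga5 (-0.70 to -0.38), and in these 2 genes the interval of each ratio excluded 1. The values were -0.38 for Itgav (-0.52 to -0.25), -0.19 for Itga4 (-0.25 to -0.12), -0.15 for Itgb7 (-0.35 to 0.05) and 0.037 for Itgb1 (-0.03 to 0.10). The log2 KO/WT of Itgb1 and Itgb7 in HSCs (-0.0043 and 0.0022) is smaller than the shift of up to 0.02 that another scaling gives, so their signs there are not settled.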

How the results depend on the processing

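No value that passed a test or a cutoff changed direction in the alternatives run, and the HSC ratios of Itga4 and Itga6, which passed none, turned to 0.921 and 0.922 under the added length correction. Past the cutoffs, HSCs had 2248 genes up and 1639 down (4354 and 2649 with no filter on counts, 1431 and 792 with at least 50 counts). CD41low/CD9low HSCs had 1998 up (3121 with no filter) and 1788 down, or 982 and 702 with at least 50 counts. In the genotype term, 80 genes were higher and 46 lower. Scaling by total count gave 121 and 85, no filter 254 and 166, DESeq2 69 and 30, and no population term 0 and 0 (edgeR, 100 and 54 at an unadjusted p under 0.05). Without the population term Itgb3 kept its direction at log2 1.67 (adjusted p = 0.9999). Without the filter Itga2b passed at 0.47 (adjusted p = 0.0455). Without the genotype term, 371 genes were higher and 749 lower between populations, and Itgb3 missed the threshold at -2.23 (adjusted p = 0.0747). The correction for exon length, chosen after seeing the data, moved the HSC ratios of Itga2b to 1.24 and Itgb3 to 3.20. Of the planned values for single members and lists, 211 did not move beyond their error and 50 did, most of them TPM under the other length. The median log2 KO/WT of the other integrin subunits in CD41low/CD9low HSCs was -0.51 among genes with at least 50 counts, against 0.17. Itga5 passed in the population term without the filter (-0.48, adjusted p = 0.0325). The causes were not tested.

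No paired analysis within a population was possible, because each genotype has 1 library per population and there are no replicates to pair. The population term of the fit already compares KO with WT within each population, and the calls without it are given above. Leaving out a library removes the residual degree of freedom and was not run. Pooled mice, 1 library per group and a depth of 12732079 to 50781007 counts limit the values, most for Itga2 and Itga9, which have 49 to 534 counts.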
